A study of Mus musculus with 3 samples.

Results

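The genes described here are the secreted-peptide and small secreted-protein families of the male tract whose symbols start with Defb, Wfdc, Spink, Lcn or Cst followed by a number, plus Spinkl. They were taken by symbol alone, which gave 92 of the 26124 genes in the count matrices: 42 beta-defensins, 18 whey acidic protein (WFDC) genes, 13 Kazal-type inhibitor (Spink) genes, 10 lipocalins and 9 cystatins. The study compared 3 single-cell RNA libraries of mice, 1 per group, made by droplet capture of transcript 3′ ends. The KO cauda library held epididymal cells of a Tsc22d3-knockout animal of the goGermline line, and the KO testis library held testicular cells of an adult animal of the same knockout and line. For the chimera cauda library, whose label names spermatids and spermatozoa, a Tsc22d3-knockout host had been complemented by mouse induced pluripotent stem cells (Pax7-nGFP iPS x goGermline). Both cauda samples were taken by percutaneous epididymal sperm aspiration. Every group therefore carried a Tsc22d3-deficient host, and no wild-type library was analysed here.

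Beta-defensins are short cationic peptides held together by disulfide bonds, best known for killing microbes, and in the epididymis several coat the surface of maturing sperm. WFDC proteins and Kazal-type Spink proteins inhibit proteases, cystatins inhibit cysteine proteases, and lipocalins carry small hydrophobic ligands. The epididymal epithelium, mainly its principal cells, secretes many of them into the lumen in regional patterns that depend on androgen, while Sertoli and Leydig cells of the testis make others.

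Most members lie in clusters of duplicated genes. By GENCODE M21 positions on GRCm38, 85 of the 92 members fell into 11 loci of 2 or more genes, with neighbours at most 1000 kb apart. The promoters of 4 members are shown because they stand in 2 such loci on chromosome 2 and their genes differed in level between the organs. Defb28 and Wfdc15b were higher in the KO cauda, Defb36 was higher in the KO testis, and Wfdc10 was near level in both. Each run covers 250 bases before to 50 bases after the start given by RefSeq (GRCm38.p6), on the strand of the gene and 5′ to 3′. Capitals mark AGAACA or its complement TGTTCT, a core hexamer of binding sites for the androgen and glucocorticoid receptors.
Defb28 promoter, chr2:152518005-152518304, plus strand: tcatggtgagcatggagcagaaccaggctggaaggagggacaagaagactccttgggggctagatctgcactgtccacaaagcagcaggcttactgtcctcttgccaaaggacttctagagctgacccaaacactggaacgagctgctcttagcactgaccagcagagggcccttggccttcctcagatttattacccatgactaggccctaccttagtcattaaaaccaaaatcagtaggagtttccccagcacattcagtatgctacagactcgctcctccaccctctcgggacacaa
Defb36 promoter, chr2:152604077-152604376, plus strand: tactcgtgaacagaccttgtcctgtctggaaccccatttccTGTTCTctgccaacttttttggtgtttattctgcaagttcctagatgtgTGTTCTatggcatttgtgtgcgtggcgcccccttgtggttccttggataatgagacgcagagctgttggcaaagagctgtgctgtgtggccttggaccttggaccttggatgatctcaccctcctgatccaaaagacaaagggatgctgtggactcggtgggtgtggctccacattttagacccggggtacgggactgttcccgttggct
Wfdc15b promoter, chr2:164221614-164221913, minus strand: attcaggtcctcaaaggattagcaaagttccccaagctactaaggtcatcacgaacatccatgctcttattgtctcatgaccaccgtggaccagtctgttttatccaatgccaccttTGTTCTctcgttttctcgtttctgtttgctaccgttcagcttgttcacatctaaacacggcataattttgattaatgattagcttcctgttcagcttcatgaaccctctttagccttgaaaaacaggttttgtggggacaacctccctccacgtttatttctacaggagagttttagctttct
Wfdc10 promoter, chr2:164655796-164656095, plus strand: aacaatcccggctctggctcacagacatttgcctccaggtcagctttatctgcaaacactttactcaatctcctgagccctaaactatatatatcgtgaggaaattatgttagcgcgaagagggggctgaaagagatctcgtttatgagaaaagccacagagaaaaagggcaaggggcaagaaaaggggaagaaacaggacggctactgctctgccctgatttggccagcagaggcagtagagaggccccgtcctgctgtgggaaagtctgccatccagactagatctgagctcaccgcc
The hexamer occurred in the Defb36 promoter 160 and 209 bases before the start and in the Wfdc15b promoter 133 bases before it, and it did not occur in the Defb28 and Wfdc10 windows. RefSeq promoters were found for 61 of the 92 members, 67 promoters in all. AGAACA on either strand occurred in 27 of the 67 (40.3%), against 18.97% of 32851 promoters of the same length. TATAAA, on either strand, occurred in 16.4% against 13.6%, and the kappaB-type pattern of GGGA, any 4 bases and CC in 11.9% against 20.7%. The median GC content was 50.3% for member promoters and 52.7% for all. Promoters of paralogs share sequence, so these 67 are not independent, and a match is a description of letters only.

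The KO cauda matrix held 41862286 unique molecular identifiers (UMIs, counted transcripts) in 3937 barcodes and the KO testis matrix 134795047 in 18108 barcodes, all of 500 or more UMIs, with medians of 8963 and 4787.5. The chimera matrix was not limited to cells: 5395856 UMIs lay in 214502 barcodes, of which 222 had 500 or more UMIs (called cell-sized here) and held 54.5% of the UMIs. A level in CPM is the number of UMIs of a gene per 1000000 UMIs of the library, range or cluster named. With 1 library per group no test between groups was possible; intervals are 95% and cover counting error only, and a difference between libraries has no replicate check. A floor of 3 UMIs, the one-sided limit used for a count of 0 (the intervals are two-sided and reach higher), equals 0.556 CPM in the chimera, 0.0717 in the KO cauda and 0.0223 in the KO testis. Reads of Tsc22d3, the deleted gene, gave 22.8 CPM in the chimera, 10.8 in the KO cauda and 6.05 in the KO testis; a 3′ tag can lie outside the deleted part, so these values do not check the labels.

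The cauda libraries shared barcodes. Of the 3937 KO cauda barcodes, 3936 had at least 1 UMI in the chimera matrix, against 973 of 18108 KO testis barcodes. Among the 222 cell-sized chimera barcodes 125 were KO cauda barcodes, and they held 95.3% of the cell-sized UMIs; 0 of the 222 were KO testis barcodes. In those 125 the same barcode had a median of 21005 UMIs in the chimera and 3684 in the KO cauda. The chimera had more UMIs in 121 of them and the KO cauda in 4. Compared gene by gene, a median of 98.7% of the UMIs of the smaller count had a match in the other. With another KO cauda barcode of similar total it was 66.6%. Results that rest on the chimera are therefore given with and without the barcodes that both cauda matrices hold; without shared barcodes means that the chimera loses all 3936, which leaves 97 cell-sized barcodes (139106 UMIs), while the KO cauda loses only the 125 that are cell-sized in both libraries. The removal is thus unequal, since leaving out every shared barcode would leave 1 KO cauda barcode. The cause of the sharing was not tested.

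Cells agreed only in part with the labels. Of 3426 KO cauda cells that were clustered, 978 were macrophage-like and 1869 B lymphocyte-like by their markers, and 2 small clusters carried all 8 general epithelial markers. Among 184 clustered chimera cells, 82 were macrophage-like (68 of them shared barcodes), 77 B lymphocyte-like (51 shared) and 25 resembled elongating or condensed spermatids (2 shared). The 15 spermatid markers summed to 36369 CPM in unshared low-UMI chimera barcodes, 9.48 in the KO cauda and 4.56 in the KO testis. Without the barcodes that are cell-sized in both cauda libraries, the KO cauda value was 0.876 CPM. In bulk sums over a library, as used for the levels below, fewer cells of a type and less RNA per cell cannot be told apart.

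Members held 0.770% of KO cauda UMIs, 2.04% of KO testis UMIs and 0.660% of chimera UMIs. More than 3 UMIs were counted for 55 members in the KO cauda, 48 in the KO testis and 43 in the chimera, and 16, 11 and 16 members reached 20 CPM. A total of 11 members had no UMI in any library: Defb4, Defb5, Defb12, Defb18, Defb22, Defb26, Defb34, Defb35, Defb46, Cst10 and Lcn6. Another 11 members had at most 3 UMIs in each library.

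The KO cauda and the KO testis differed in their leading defensin (Defb28 and Defb19) and Spink gene (Spink8 and Spink4), whereas Wfdc17, Lcn2 and Cst3 had the most UMIs of their families in both. Wfdc17, a WFDC protein of activated macrophages, was the top member of the KO cauda at 3786 CPM, and stood at 1027 CPM in the KO testis and 2604 in the chimera. Cst3, the general extracellular cystatin C, followed at 2522 CPM in the KO cauda, 5046 in the KO testis and 2604 in the chimera. Apart from these 2 genes, the KO cauda was led by Spink8, a Kazal-type inhibitor, while the KO testis was led by Lcn2, the lipocalin that binds bacterial siderophores.

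Among cauda-led members, Spink8 (chromosome 9, 109812280 to 109826633) had 375 CPM in the chimera, 374 in the KO cauda and 0.497 in the KO testis. Spink10 had 92.8, 110 and 1.33 CPM in the same order, and Spink14 had 30.2, 36.1 and 0.223 CPM. All 3 Kazal-type genes were thus high in both cauda libraries and near the floor or low in the testis. Wfdc15b (chromosome 2, 164214454 to 164221660) had 211, 212 and 0.0074 CPM, the last from 1 UMI. Wfdc9 had 22.4, 41.6 and 3.32 CPM. Among the beta-defensins, Defb28 (chromosome 2, 152518255 to 152521447) had 171 CPM in the chimera, 121 in the KO cauda and 0.030 in the KO testis. Defb43 had 35.4, 63.0 and 0.015 CPM, and Defb2 had 44.3, 51.2 and 0 CPM. Lcn12, a lipocalin, was rarer, at 8.53, 7.91 and 0.282 CPM, and was the top lipocalin of the chimera only. Shared barcodes weighed unevenly. Of the barcodes that are cell-sized in both cauda libraries, 4 had more UMIs in the KO cauda (56101 to 85830) than in the chimera. They held 33.4% of Spink8 UMIs and 27.8% of Defb28 UMIs of the KO cauda. With all 3936 shared barcodes left out of the chimera and the 125 left out of the KO cauda, Spink8 stood at 822 CPM in the chimera and 251 in the KO cauda, Defb28 at 385 and 88.6, and Wfdc15b at 475 and 194.

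Among testis-led members, Lcn2 (chromosome 2, 32384633 to 32388252) had 3.89 CPM in the chimera, 9.03 in the KO cauda and 9810 in the KO testis, where it made up 99.990% of lipocalin UMIs. Defb19 (chromosome 2, 152576086 to 152580312), a defensin known from Sertoli cells, had 2.41, 0.502 and 3457 CPM and supplied 94.3% of testis defensin UMIs. Both were far above every other member of their family in the testis. Cst12, a testis cystatin, had 0, 0.048 and 450 CPM. Defb36 had 3.71, 0.119 and 194 CPM. Cst8, a cystatin-related protein of the testis and epididymis, had 12.4, 0.096 and 111 CPM. The remaining testis-led members of the families were smaller. Spink4, a Kazal-type gene best known from gut goblet cells, had 0.185, 0.048 and 74.1 CPM. Wfdc1, a secreted stromal protein, had 0.371, 0.334 and 35.6 CPM. Wfdc10 belonged to neither group, with 141 CPM in the chimera, 136 in the KO cauda and 123 in the KO testis.

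**Figure D1:**
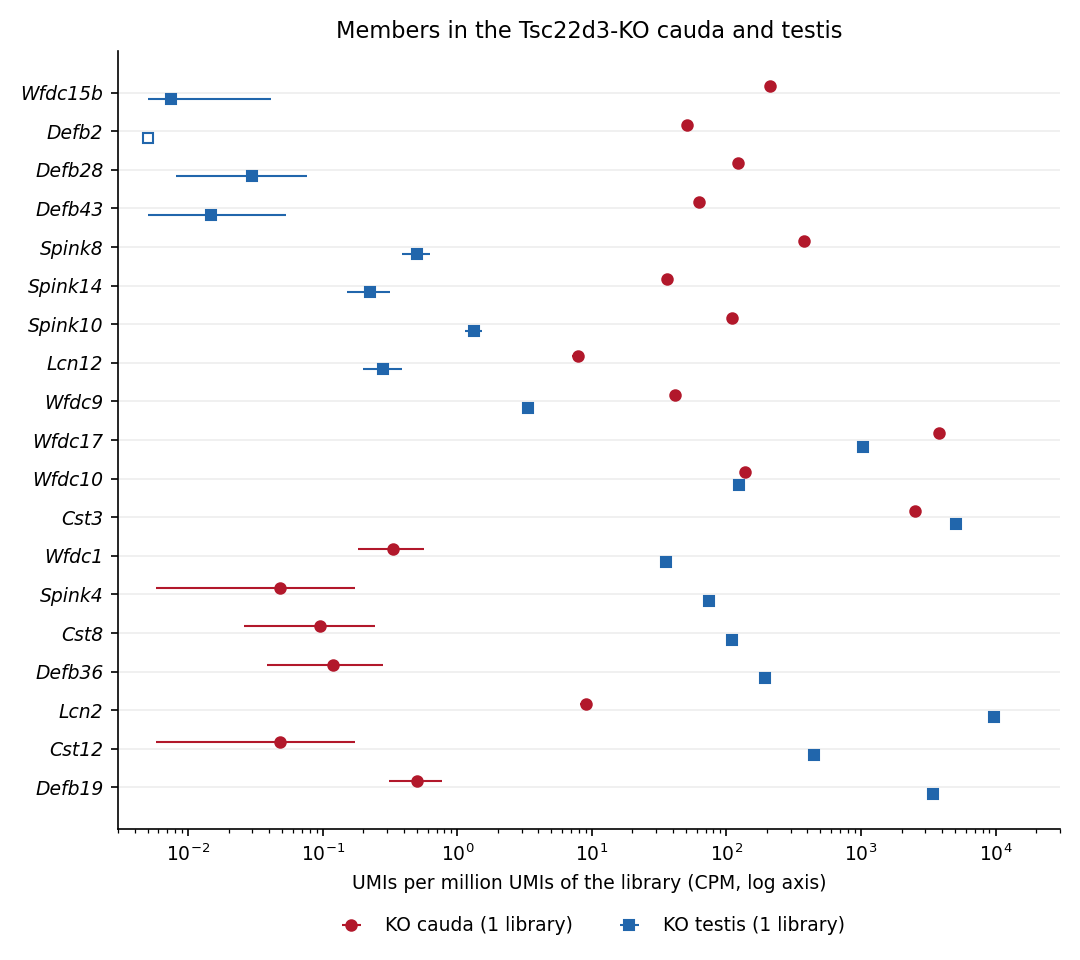
Level of 19 members (rows) in the KO cauda (circles) and the KO testis (squares), 1 library each, in CPM on a log axis. Bars are 95% exact Poisson intervals, cut at the left end of the axis; the open square is 0 UMIs. Wfdc15b to Wfdc17 are higher in the cauda, Wfdc10 lies close to equal at 136 and 123 CPM, and Lcn2 and Defb19 reach 9810 and 3457 CPM in the testis.

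By a size rule of at least 4-fold and at least 20 CPM in the higher library, 8 of 24 members assessed were higher in the KO testis (background 14.7% of 7168 genes) and 13 were lower (background 8.55%). The median difference was -4.03 on the log2 scale for members and 0.30 for all genes assessed. Cst12 was higher 9428-fold (2610 to 77851; 2 UMIs in the cauda), Defb19 6891-fold (4508 to 11133), Defb36 1626-fold (697 to 5008) and Spink4 1551-fold (429 to 12805). Lcn2, Cst8, Cst9 and Wfdc1 were the other members higher in testis. Wfdc15b was lower 28590-fold (5130 to 1.1294e+06; 1 testis UMI), Defb43 4247-fold (1175 to 35088; 2 testis UMIs) and Defb28 4085-fold (1595 to 15000). Defb2, with no testis UMI, was at least 2299-fold lower against 3 UMIs of the testis library. Without the 125 KO cauda barcodes that are cell-sized in both cauda libraries, 8 of 22 members were higher (background 14.8%) and 11 lower (background 8.53%); Defb40 and Defb11 then fell below 20 CPM.

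Neighbouring genes of 1 locus were led by different organs. The chromosome 2 defensin locus (152459055 to 152623053) holds 11 members; Defb28 led it in the cauda, and Defb19 and Defb36 led it in the testis, although the starts of Defb28 and Defb19 lie 62.1 kb apart and those of Defb19 and Defb36 24.0 kb apart. The chromosome 2 cystatin locus (148768609 to 149410293, 7 members) holds Cst3, Cst8, Cst9 and Cst12. In the chromosome 2 WFDC locus (164176327 to 164745931, 14 members) the summed level was 472 CPM in the cauda and 132 in the testis. Wfdc9 and Wfdc10 in this locus overlap by 538 bases on opposite strands. Spink10 overlaps Spink7 and Spink13, which also lie on the opposite strand. Whether any read of an overlap was counted for the gene on the other strand was not tested. No pair of members was 95% or more identical over at least 90 of the last 500 transcript bases; Wfdc6a and Wfdc6b came closest, at 94.6% over 500 bases, so their counts are uncertain.

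Within the KO cauda, the members other than Cst3 and Wfdc17 were concentrated in 2 clusters of 351 cells with epithelial markers. These held 64.9% of those members' UMIs (64.4 to 65.4) and 3.15% of all UMIs of clustered cells. With Wfdc17 counted the share was 14.2%. At a limit of 10% mitochondrial counts in place of 20% it was 2.82%, but over another set of clusters. There a cluster of 117 cells with 7 of 8 general epithelial markers raised was named mesothelium-like (4 of 4 markers) and was not counted. The 14.2% and 2.82% therefore do not compare like clusters. The members had not been used to make the clusters. Cluster 6 (108 cells) had all 8 general epithelial markers raised and is called epithelium-like. It was mixed in its markers, since all 4 mesothelium markers were raised too and 1 of them, Upk3b, was among its 10 leading genes. Cluster 5 (243 cells) also had all 8 general epithelial markers raised but stayed unnamed under the marker rule. The 13 principal cell markers summed to 70496 CPM in cluster 6, 17694 in cluster 5 and 1870 in macrophage-like cells, with 1, 3 and 3 of the markers at 0. Of 36 members with 20 or more UMIs in clustered cells, 28 were highest in cluster 6 and 3 in cluster 5 (Spink11, Spink14 and Wfdc8). Another 2 were highest in the macrophage-like cluster (Cst3 and Wfdc17), and Cst7 in the T or NK lymphocyte-like cluster. Spink2 and Wfdc18 were highest in small unnamed clusters. The same count was not made over all genes, so the 28 of 36 has no background.

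Spink8 had 12993 CPM in cluster 6, 1037 in cluster 5, 93.1 in macrophage-like cells and 107 in B lymphocyte-like cells. Without the 2 cells of cluster 6 whose barcodes are also cell-sized in the chimera, its level there was 5121 CPM. Spink8 was unevenly spread: 11 of 3937 barcodes held 50% of its UMIs, 1 of them with 2854. Defb28 was similar, with 4919 CPM in cluster 6 (3435 without the 2 cells), 273 in cluster 5, 23.7 in macrophage-like and 28.7 in B lymphocyte-like cells, and 11 barcodes held 50% of its UMIs. Wfdc15b was spread more widely, with 117 barcodes for 50%, and had 5573 CPM in cluster 6 (6268 without the 2 cells) and 678 in cluster 5. Wfdc10 had 4163 and 524 CPM in clusters 6 and 5, and Wfdc9, its overlapping neighbour, 1508 and 177. The same order held for Spink10 (2599 and 742 CPM), Defb43 (2531 and 205), Defb2 (2089 and 102), Lcn12 (256 and 68.9) and Lcn2 (222 and 17.2).

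Wfdc17 had the opposite pattern, with 8481 CPM in macrophage-like cells, 1668 in cluster 5, 108 in B lymphocyte-like cells and 94.0 in cluster 6. Cst3 had 4472 CPM in macrophage-like cells and between 883 and 1044 in cluster 5, B lymphocyte-like cells and cluster 6. Thinned to 500 UMIs per cell, Wfdc17 was seen in 93.3% of macrophage-like cells, 5.82% of B lymphocyte-like cells of cluster 2 and 12.0% of cluster 6. Spink8 was seen in 70.4% of cluster 6 (60.8 to 78.8), 44.0% of cluster 5, 5.32% of macrophage-like and 6.70% of cluster 2 cells. Unthinned, 77.0% of macrophage-like cells had a Spink8 UMI. No barcode of the KO cauda matrix has under 500 UMIs, so the share that free RNA gives was not measured, and the low thinned shares in macrophage-like and lymphocyte-like cells are not read as expression. Wfdc15b was seen in 84.3% of cluster 6 and 36.6% of cluster 5 against 3.48% and 4.94% of macrophage-like and cluster 2 cells, and Defb28 in 57.4% and 17.3% against 1.84% and 1.43%.

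**Figure D2:**
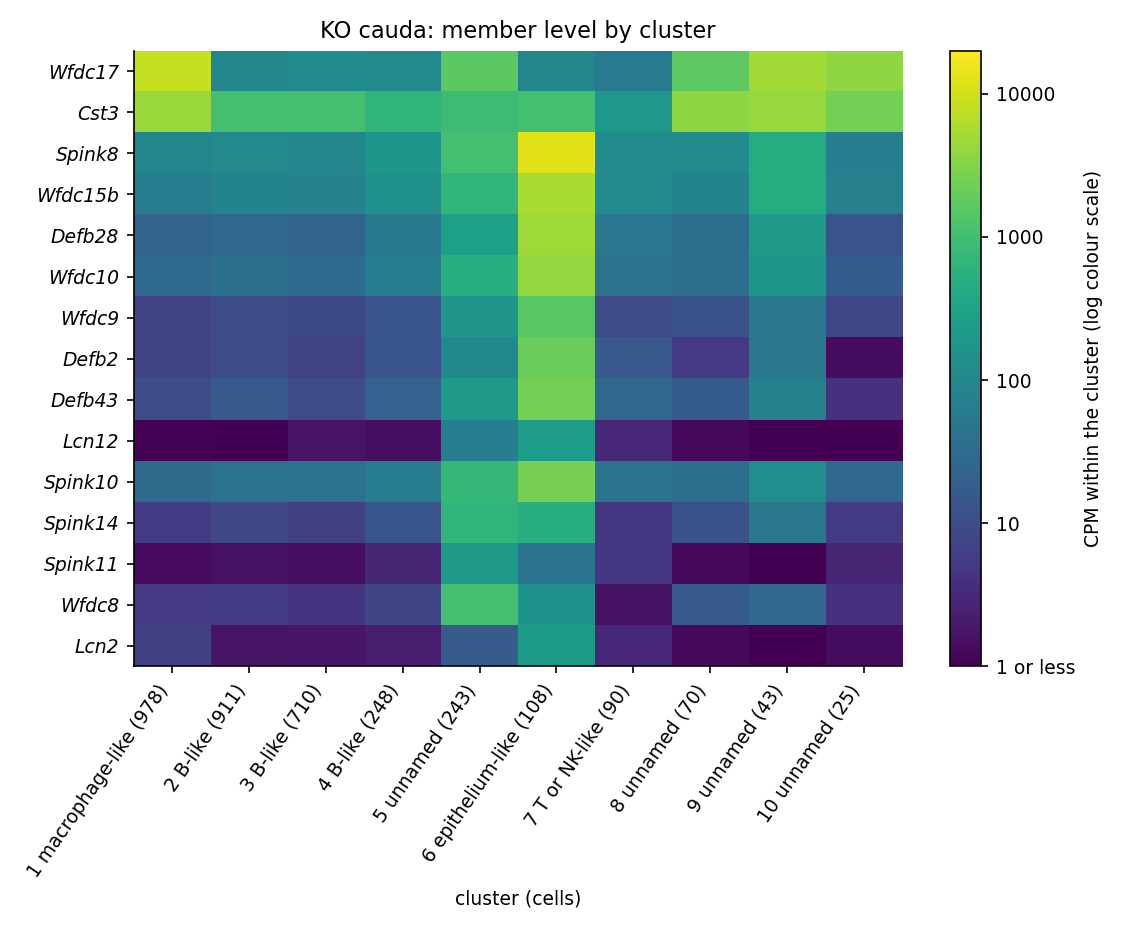
Level of 15 members (rows) in the 10 clusters of the KO cauda (columns, with the number of cells), as CPM within the cluster on a log colour scale; 1 CPM or less has the darkest colour. Column 6 is brightest for most rows, Spink14, Spink11 and Wfdc8 are brightest in column 5 (676, 204 and 1096 CPM), and Wfdc17 and Cst3 are brightest in column 1.

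By the same size rule 30 of 32 members were higher in the 2 epithelial clusters than in the other clusters (background 24.9% of 8377 genes). Only 1, Wfdc17, was lower, by 4.08-fold, and the share of all genes lower was not counted. A gene was assessed where either group reached 20 CPM. Members rare in the library thus entered only through the epithelial clusters, and a higher call was nearly fixed for them. The median difference was 6.45 on the log2 scale for members and 0.81 for all genes. Defb38 was higher 200-fold, Wfdc6b 186-fold, Defb39 154-fold and Defb48 146-fold. In the whole KO cauda these genes had 5.40, 5.80, 1.34 and 2.32 CPM, so they were assessed only through the epithelial clusters. Without the barcodes that are cell-sized in both cauda libraries, 29 of 31 were higher (background 27.0%), and Wfdc17 was 3.60-fold lower and did not pass the rule.

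Clusters 5 and 6 differed from each other. Cluster 5 was higher than cluster 6 for 3 of 33 members (background 28.7%) and lower for 15 (background 6.48%). Wfdc17 was higher 17.7-fold (13.3 to 24.3), Wfdc8 6.84-fold (5.43 to 8.73) and Spink11 4.43-fold (2.84 to 7.22). Cluster 5 also had macrophage markers at a summed 8313 CPM, against 510 in cluster 6, and their part in the Wfdc17 level was not tested. Spink14 was nearly level, at 676 CPM in cluster 5 and 498 in cluster 6. Defb37 was lower 66.9-fold (11.4 to 2696; 1 UMI in cluster 5), Defb10 41.8-fold (6.95 to 1705; 1 UMI), Defb39 26.5-fold and Defb38 21.9-fold. Without the barcodes that are cell-sized in both cauda libraries, 2 of 35 were higher (background 26.2%), since Spink11 was then 3.90-fold higher, and 18 were lower (background 7.56%). The 511 KO cauda barcodes left out of clustering also held Spink8 at 1221 CPM and Wfdc15b at 695 CPM.

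Within the KO testis, most of the named testis-led members lay in Leydig-like cells, which make androgen, or in Sertoli-like cells, which nurse germ cells. Leydig-like cells (cluster 1, 2968 of 12169 clustered cells) held 74.4% of the UMIs of members other than Cst3, and 46.3% once Lcn2 was also left out, against 49.9% of all UMIs. Sertoli-like cells (clusters 6 and 7, 1116 cells) held 8.96%, and 23.9% without Lcn2, against 8.77% of all UMIs. Only 66 cells were spermatocyte-like.

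Lcn2 had 19321 CPM in Leydig-like cells, 693 in the Sertoli-like class, 731 in fibroblast-like and 638 in macrophage-like cells, and 90.3% of its clustered UMIs were Leydig-like. Thinned to 500 UMIs, Lcn2 was seen in 97.5% of Leydig-like cells and 12.7% of Sertoli-like cluster 7, but also in 81.5% of Sertoli-like cluster 6, whose cells had a median of 885 UMIs against 14253 in cluster 7. Cluster 6 was mixed in its markers: 10 of 11 Sertoli and 3 of 4 neutrophil markers were raised, its 10 leading genes held 2 Sertoli markers and 2 of other classes, and Leydig markers summed to 8515 CPM there against 533 in cluster 7. At Leiden resolution 1.0 a neutrophil-like cluster of 345 cells and a Sertoli-like cluster of 271 cells appeared beside the 512 cells of cluster 7. Lcn2 is also a neutrophil gene, and the part of these cells in its level of 4888 CPM in cluster 6 was not tested; in cluster 7 it was 281 CPM. Spink4 (150 CPM in Leydig-like, 8.6 in Sertoli-like cells) and Cst8 (203 and 24.1 CPM) had 93.0% and 83.7% of their UMIs in Leydig-like cells. Cst8 was highest in cluster 9, an unnamed cluster of 338 cells, at 242 CPM, where Lcn2 stood at 13959 CPM. The best marker list of cluster 9 was Leydig, with 2 of 8 markers raised, too few for a name. It counts as elsewhere in the folds that follow. Spink4, Lcn2 and Cst8 were the 3 members higher in Leydig-like cells than elsewhere, of 13 assessed (background 2.86%). Spink4 was higher 13.3-fold, Lcn2 9.35-fold and Cst8 5.16-fold. Another 8 members were lower in Leydig-like cells, led by Wfdc1 (149-fold), Wfdc17 (125-fold), Wfdc18 (112-fold) and Defb36 (79.5-fold). The share of all genes lower there was not counted, so the 8 has no background. The median difference was -6.06 on the log2 scale for members, and -0.34 for all genes.

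Sertoli-like cells carried cystatins, defensins and WFDC genes together. Cst12 had 5157 CPM in Sertoli-like and 12.4 in Leydig-like cells. Defb36 had 2139 and 5.0 CPM, and Wfdc10 1370 and 3.7 CPM. Each of the 3 was high in both Sertoli-like clusters; in cluster 7 alone Cst12 had 5271 CPM, Defb36 2135 and Wfdc10 1391. Cst9, known as testatin, had 294 and 0.8 CPM and Wfdc9 37.3 and 0.1 CPM. Between 92.6% and 95.5% of the clustered UMIs of these 5 genes were in the Sertoli-like class. By the size rule 8 of 15 members were higher in Sertoli-like cells (background 11.4% of 7785 genes): Cst12 222-fold, Cst9 200-fold, Wfdc10 176-fold and Defb36 132-fold, and also Defb45, Wfdc6a, Wfdc9 and Wfdc18. Another 5 were lower, among them Wfdc17 (25.2-fold), Lcn2 (16.8-fold), Spink4 (10.1-fold) and Cst8 (5.40-fold). The share of all genes lower in Sertoli-like cells was not counted, so the 5 has no background. The median difference was 4.56 on the log2 scale for members and 0.40 for all genes. Thinned, Cst12 was seen in 91.8% of cluster 7, 45.9% of cluster 6 and 0.674% of Leydig-like cells.

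Defb19 was high in both Sertoli-like and Leydig-like cells, at 6946 CPM in Sertoli-like and 5155 in Leydig-like cells, with 1277 in fibroblast-like and 354 in macrophage-like cells. Its UMIs fell 69.8% to Leydig-like and 16.5% to Sertoli-like cells, and thinned cells carried it in 88.2% and, in cluster 7, 90.6%. Defb36, whose start lies 24.0 kb away, was seen in 62.3% of cluster 7 and 0.371% of Leydig-like cells. Outside these classes, Wfdc17 had 9252 CPM in macrophage-like cells with 93.0% of its UMIs, and Wfdc1 had 320 CPM in peritubular myoid or smooth muscle-like cells with 67.9%. Cst3 was broad, at 15188 CPM in macrophage-like, 8366 in fibroblast-like, 3946 in Leydig-like and 1251 in Sertoli-like cells.

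**Figure D3:**
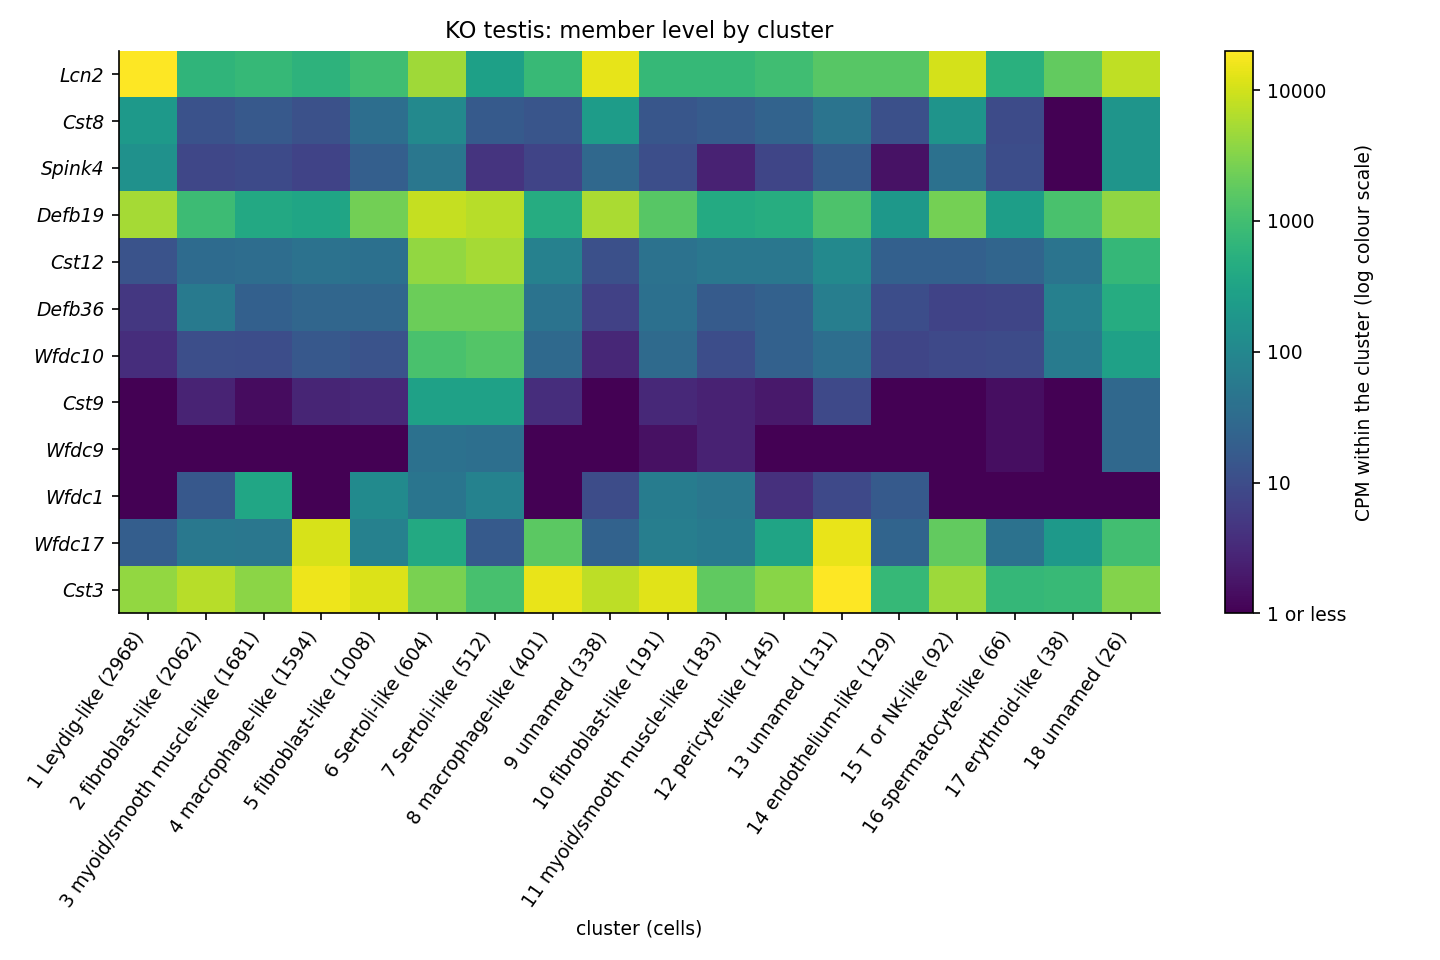
Level of 12 members (rows) in the 18 clusters of the KO testis (columns, with the number of cells), as CPM within the cluster on a log colour scale; 1 CPM or less has the darkest colour. Lcn2 is brightest in column 1, Cst12, Defb36, Wfdc10, Cst9 and Wfdc9 in columns 6 and 7, Wfdc1 in column 3, and Wfdc17 and Cst3 in macrophage columns and column 13.

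Wfdc10 and Wfdc9 thus had a level in different cells of the 2 organs: Wfdc10 reached 4163 CPM in the epithelium-like cluster 6 of the KO cauda and 1370 CPM in Sertoli-like cells of the KO testis, and Wfdc9 1508 and 37.3 CPM. Wfdc17 had a like level in macrophage-like cells of both, at 8481 CPM in the KO cauda and 9252 in the KO testis.

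In the chimera, the epithelial members lay mostly outside cell-sized barcodes. Spink8 had 772 CPM in barcodes under 500 UMIs and 44.9 in cell-sized barcodes, Wfdc15b 438 and 21.1, and Defb28 346 and 25.8. Wfdc10 (287 and 19.03 CPM), Spink10 (191 and 10.9) and Defb2 (84.4 and 10.9) had the same order. Cst3 was level at 2601 and 2607 CPM, and Wfdc17 stood at 2372 and 2798. By the size rule 16 of 18 members were higher in low-UMI barcodes (background 5.45% of 6731 genes) and 0 lower (background 0.357%), with a median of 3.998 on the log2 scale against -0.25 for all genes. The folds were led by Spink5 at 38.7 (14.7 to 144), Defb40 at 35.7 (13.6 to 133), Wfdc15b at 20.8 (16.1 to 27.3) and Spink14 at 20.5 (10.5 to 45.7). No chimera cluster was epithelial.

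That contrast did not hold without the shared barcodes. Spink8 then had 857 CPM in low-UMI and 295 in cell-sized barcodes, Wfdc15b 487 and 309, Defb28 386 and 374, and Defb2 94.0 and 137. Wfdc10 had 314 and 158 CPM, and Cst3 2644 and 992. Only 1 of 25 members, Spink5, passed the rule as higher in low-UMI barcodes (background 6.54%), at 4.205-fold (1.14 to 35.1; 2 UMIs in cell-sized barcodes). Lower in low-UMI barcodes were 3 (background 9.18%): Wfdc15a 18.7-fold (4.03 to 94.4), Spink2, an acrosomal inhibitor of germ cells, 8.10-fold (4.45 to 14.3) and Wfdc3 5.62-fold (1.80 to 15.1). The median was 0.65 on the log2 scale for members and 0.25 for all genes. In the unshared barcodes macrophage markers summed to 7865 CPM in cell-sized and 23035 in low-UMI barcodes, spermatid markers to 55030 and 36369, and principal cell markers to 3400 (6 of 13 markers at 0) and 8135 (1 of 13 at 0). The part of these in the member levels was not tested.

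**Figure D4:**
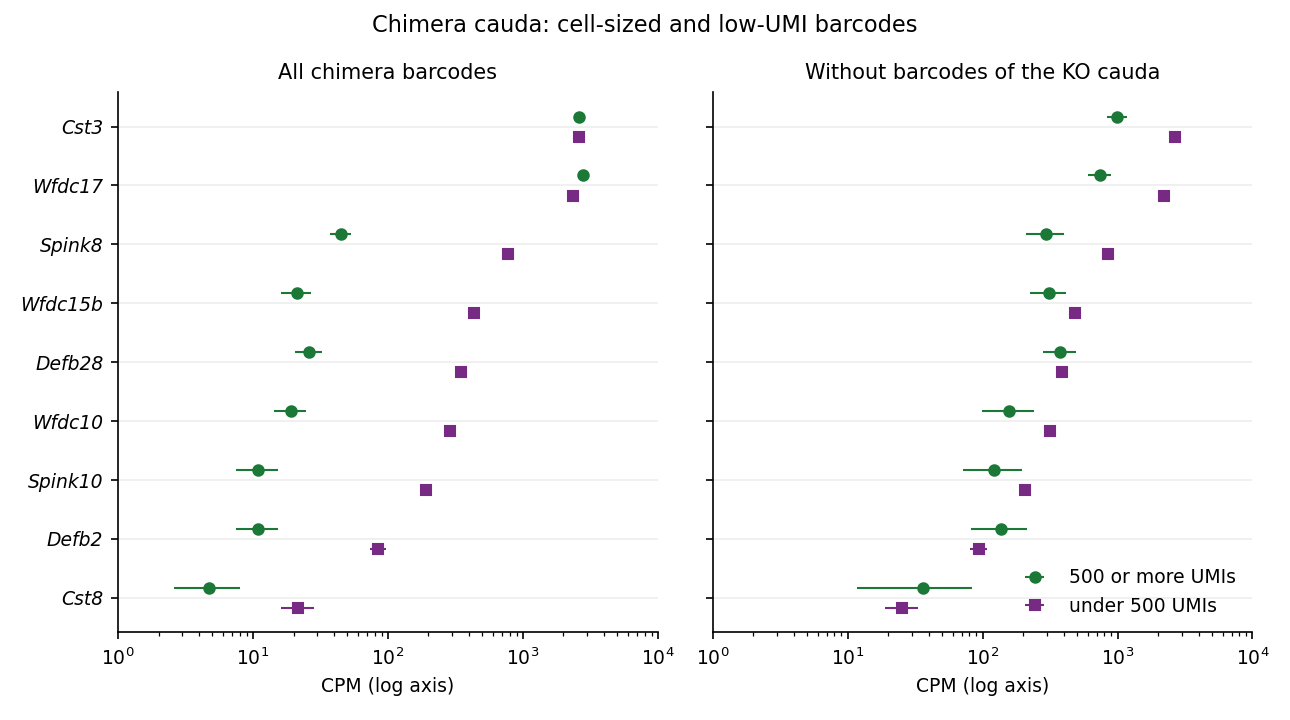
Level of 9 members (rows) in cell-sized (circles, 500 or more UMIs) and low-UMI (squares) chimera barcodes, in CPM on a log axis, for all barcodes (left) and without barcodes of the KO cauda (right). Bars are 95% exact Poisson intervals. Spink8 lies at 44.9 and 772 CPM on the left and at 295 and 857 CPM on the right, and Defb28 is nearly level on the right.

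As shares, 92.2% of the chimera UMIs of members other than Cst3 and Wfdc17 were in low-UMI barcodes, where 45.5% of all chimera UMIs lay; without shared barcodes the figures were 95.8% and 93.7%. Principal cell markers had 89.2% and, without shared barcodes, 97.3%. Spermatid markers had 88.3% and 90.8%. Cst3 had 45.4% and 97.6%, and Wfdc17 41.4% and 97.8%. Within unshared barcodes, members other than Cst3 and Wfdc17 summed to 4392 CPM at 1 to 19 UMIs, 2530 at 20 to 49, 2313 at 50 to 99, 4033 at 100 to under 500 and 2056 at 500 or more, with no steady order. Spink8 followed the same course, at 1216, 720, 611, 973 and 295 CPM. Spink8 UMIs were found in 1612 unshared low-UMI barcodes, of which 92.9% had 1 UMI.

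Barcodes of few UMIs that held an epithelial member also held principal cell markers more often. Among 38165 unshared chimera barcodes of 20 to 49 UMIs, 12.6% (12.3 to 13.0) had a UMI of at least 1 of 13 principal cell markers. The share was 23.4% (20.3 to 26.7) of those with Spink8, 25.4% with Wfdc15b, 27.8% with Wfdc10, 27.7% with Spink10, 19.9% with Defb28 and 33.8% with Defb2. It was 12.5% with Cst3 and 12.1% with Wfdc17. The median total was 26 UMIs over all these barcodes and 24 to 29 over those with each member named here. One of the markers, Cd52, is also a leukocyte gene; without it, a choice made after its values were seen, the share was 10.6% over all such barcodes, 20.3% with Spink8, 20.7% with Wfdc15b and 30.8% with Defb2. A spermatid marker was present in 62.0% of all such barcodes, 61.3% with Spink8, 69.7% with Wfdc10 and 70.0% with Cst8 (50.6 to 85.3).

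**Figure D5:**
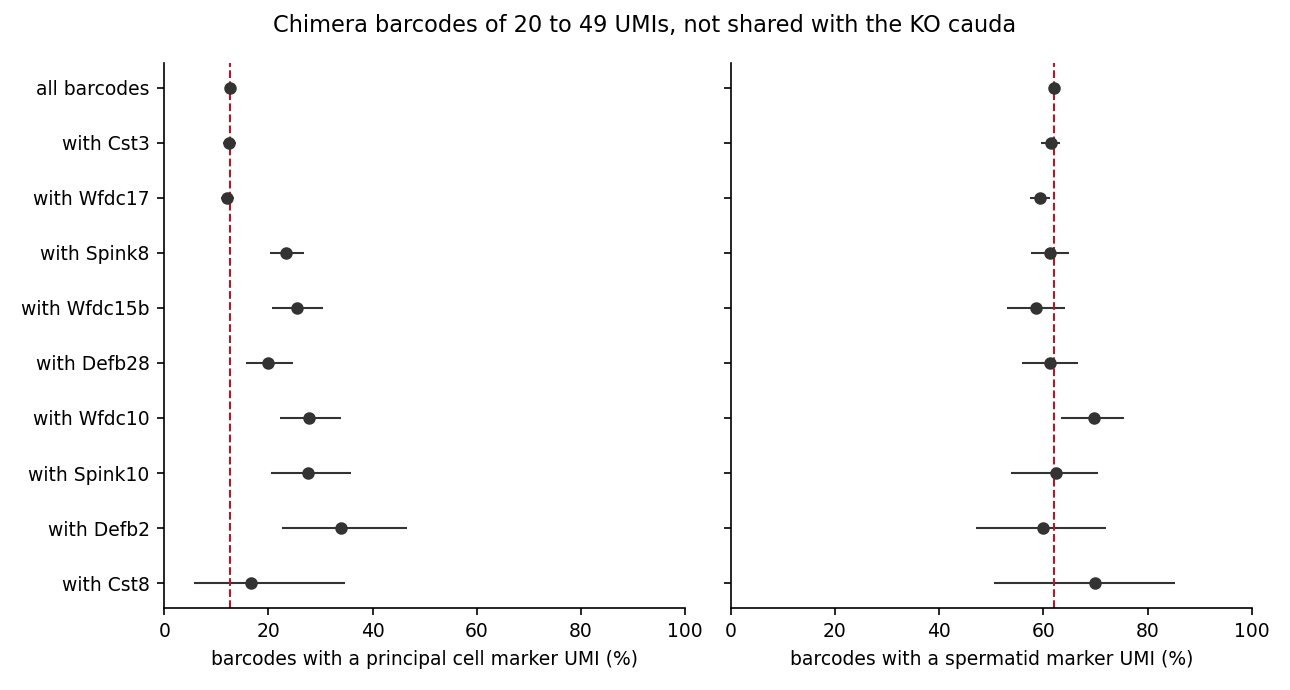
Percent of unshared chimera barcodes of 20 to 49 UMIs that hold a principal cell marker UMI (left) or a spermatid marker UMI (right), over all such barcodes and over those with each member. Bars are 95% exact binomial intervals and the dashed line is the share over all barcodes, 12.6% and 62.0%; on the left Spink8, Wfdc15b, Defb28, Wfdc10, Spink10 and Defb2 lie above the line.

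Between the cauda libraries, cell-sized chimera barcodes had 14 of 16 members lower than the KO cauda by the size rule (background 0.991% of 6256 genes) and 0 higher (background 1.66%), with a median of -3.14 on the log2 scale against 0.21 for all genes. Wfdc8 was lower 17.1-fold (7.84 to 46.7), Defb43 16.9-fold (9.40 to 33.8), Defb40 16.0-fold (6.21 to 58.7) and Wfdc9 15.3-fold (7.75 to 35.5). Over all chimera barcodes 0 of 17 were higher (background 4.08%) and 1 lower (background 0.236%), Wfdc8, at 4.28-fold, with a median of -0.14 against 0.11. The other 16 did not pass the rule once all barcodes were counted.

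Without the shared barcodes, removed from the chimera and in part from the KO cauda as above, the 14 lower calls became 1. Among cell-sized barcodes 5 of 20 members were higher in the chimera (background 17.5%) and 1, Wfdc17, was lower (background 7.99%), by 5.16-fold, with a median of 0.50 against -0.25; both shares were near the background. The higher members were Cst8 at 1478-fold (165 to 69889; 5 UMIs against 1), Wfdc15a at 296-fold (68.0 to 1284; 5 against 5 UMIs), Spink2 at 156-fold (85.8 to 274), Wfdc3 at 18.9-fold (6.75 to 42.6) and Defb28 at 4.22-fold (3.15 to 5.55). Over all barcodes 6 of 22 were higher (background 7.96%) and 0 lower (background 0.751%), with a median of 1.28 against -0.03. Cst8 was higher 1073-fold (185 to 43081, with 1 KO cauda UMI), Spink2 27.7-fold, Wfdc6a 4.83-fold and Wfdc6b 4.52-fold, with Defb28 and Spink5 the others. The barcodes left out of the KO cauda include the 4 with more UMIs there than in the chimera, which held 27.8% of its Defb28 UMIs. Against all KO cauda barcodes, where Defb28 had 121 CPM, it would not reach 4-fold in either comparison. The other calls were not recounted that way. Of the 25 Spink2 UMIs in clustered chimera cells, shared barcodes included, 19 lay in the B lymphocyte-like cluster. That cluster also had 5 of 8 spermatocyte markers raised, and which of its cells held Spink2 was not tested. Cst8 had 266 CPM (121 to 504, from 9 UMIs) in the spermatid-like chimera cluster, and Spink8 118 CPM from 4 UMIs. These values include the 2 shared barcodes among the 25 cells of that cluster. All unshared cell-sized barcodes held only 5 Cst8 UMIs, so part of the 9 came from shared barcodes.

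Related genes outside the symbol rule moved with the organ in the same mixed way. Of 28 relatives listed (such as Slpi, Eppin and Ptgds), 5 could be assessed between KO testis and KO cauda; Eppin, Ptgds, Cstb and Fstl1 were higher in testis and Slpi, a leukocyte and epithelial protease inhibitor, lower. Slpi had 6114 CPM in the KO cauda and 7.72 in the KO testis, and Ptgds, a lipocalin-type prostaglandin synthase, had 166 and 12468. Of 28 other secreted or surface proteins of the epididymis, 8 of 11 assessed were lower in the KO testis, and 1, Clu, was higher. In cell-sized chimera barcodes 8 of 11 were lower than in the KO cauda, and without shared barcodes 0 of 10 were higher and 1, Npc2, lower. Crisp1, a sperm-coating protein of this list, had 228 CPM in cell-sized and 5094 in low-UMI chimera barcodes, and 1783 and 5684 without shared barcodes.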

How the data were processed

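Deposited UMI counts per gene and barcode were used as they stood, from 3 droplet libraries. Per the submitters' processing notes the authors used Cell Ranger 6 and Seurat 4.2.1 and the GRCm38.p6 build. The Cell Ranger release in the header of the chimera matrix differs from that of both KO matrices. The authors' filtering of barcodes differed: the chimera matrix also lists barcodes under 500 UMIs. Counts were summed by library, UMI range and cluster and scaled to CPM, with exact Poisson, binomial and conditional binomial intervals at 95%. A gene was assessed where either group reached 20 CPM, and it passed the size rule at 4-fold. A gene that enters only through 1 group is therefore likely to be called higher there, members and other genes alike. The rule was tested on simulated data. No p-values were computed, since each group is 1 library.

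Cells with 500 or more UMIs, 200 or more genes and at most 20% mitochondrial counts were clustered without the members (scanpy 1.11.5; 2000 genes, 30 components, 15 neighbours, Leiden resolution 0.5), after simulated doublets were scored and 0.8% of cells per 1000 were removed. A cluster was named only where at least 50% and 3 of a marker list were raised. Where 3 times its median UMI count was below the library median, it also needed a marker of that list among its 10 leading genes. Cluster 8 of the KO cauda, with 6 of 6 dendritic cell and 4 of 7 T or NK lymphocyte markers raised, passed this rule and was set to unnamed by hand. Named members are the 10 with most UMIs in each library plus the top of each family; of members past the size rule, those of largest fold are named. The shares without Cd52 and every sum without Wfdc17, without Lcn2 or without shared barcodes were chosen after seeing the data. Members and lists were chosen with earlier results of these data known. Positions are from GENCODE M21 and promoters from RefSeq. Software was Python 3.11.15, scipy 1.17.1, edgeR 4.0.16 (scaling factors only) and blastn 2.17.0.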

Additional observations from a re-analysis of the deposited data

How the results depend on the processing

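Ratios are summed members other than Cst3, chimera over KO cauda, on a linear scale. In cell-sized barcodes the ratio was 0.579; it was 0.492 with trimmed-mean scaling, 0.728 with Cst3, 0.598 at up to 20% mitochondrial counts, 0.143 without Wfdc17, 0.563 without shared barcodes, and reversed to 1.80 without both. Over all barcodes it was 0.771. It was 0.806 without mitochondrial and globin genes, 0.682 with trimmed-mean scaling, 0.857 with Cst3 and 0.996 without Wfdc17. The ratio reversed to 1.04 without shared barcodes and to 2.66 without both. For the 1.04 the chimera had 5161 CPM, and the KO cauda 4963 CPM after its partial removal and 5179 CPM with all its barcodes. Without Wfdc17 as well, the KO cauda had 1143 and 1393 CPM, against 2056 in cell-sized and 3040 in all unshared chimera barcodes. The 14 members lower in cell-sized chimera barcodes became 5 at 100 CPM, 24 with no CPM limit and 1 without shared barcodes; the 0 higher became 6 with no CPM limit and 5 without shared barcodes. The 16 members higher in low-UMI barcodes became 5 at 100 CPM, 28 with no limit and 1 without shared barcodes. The share of all genes called was not counted at 100 CPM or with no CPM limit, so the member counts there have no background. The share of member UMIs in low-UMI barcodes was 59.1%; it was 55.2% with cells from 200 UMIs, where low-UMI means under 200, 59.9% from 1000, 53.7% with Cst3, 92.2% without Wfdc17, 96.6% without shared barcodes and 95.8% without both. The epithelial share of the KO cauda was 14.2%. It was 13.8% with doublets kept, 9.69% with Cst3, 64.9% without Wfdc17 and 9.86% without the barcodes that are cell-sized in both cauda libraries. At up to 10% mitochondrial counts it was 2.82%, where a mesothelium-like cluster with 7 of 8 general epithelial markers raised was not counted. The Sertoli-like share of the KO testis was 8.96%; it was 8.68% at resolution 1.0, 10.2% with doublets kept, 7.49% at up to 10% mitochondrial counts, 7.19% with Cst3, 9.63% without Wfdc17 and 23.9% without Lcn2. The causes were not tested beyond the counts removed; 20 other values moved by less than counting error or, for counts, by less than 1.5 times. No paired analysis was possible because each group is 1 library. Depth limits unshared cell-sized chimera barcodes most, where 3 UMIs equal 21.6 CPM.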
